A study of Mus musculus with 367 samples.

Results

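Fos, Fosb, Jun, Junb, Jund, Egr1, Atf3, Ier2, Klf2 and Klf4 encode immediate early transcription factors, and their RNA was followed in single cells of healing mouse skin wounds. The 10 genes were taken as a named list, by symbol and not by a rule on their values, out of 50600 genes deposited. Earlier results of these data were known when the list was chosen. The cells came from Sm22-Cre;tdTomato mice of mixed background, aged 3 to 8 weeks per the labels and 6 to 8 weeks per the study's methods, whose large excisional back wounds were collected on post-wounding day (PWD) 12, 15 or 21. All groups carried the same Cre and reporter, in which the promoter of Tagln, a gene of contractile cells, drives Cre and tdTomato marks cells where it has been active. Each time point pooled the wounds of 2 to 3 mice, and viable tdTomato-high cells were loaded on C1 microfluidic chips. The 367 cells came from 7 captures, 3 on day 12, 2 on day 15 and 2 on day 21. The cells of day 12 capture 3 were assigned to it by their titles, while their descriptions name the table of capture 2. The labels do not tie captures to separate mice, so the spread between captures may be technical.

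Immediate early genes are transcribed within minutes of a stimulus from factors already present in the cell, without new protein synthesis. Fos and Jun proteins pair through leucine zippers to form the AP-1 complex, Egr1 is a zinc finger factor that binds GC-rich DNA, and Atf3 is a stress-induced member of the ATF/CREB family. Klf2 and Klf4 are Krüppel-like zinc finger factors, and Ier2 is a short nuclear protein. The same genes are widely known to rise in tissue cells during warm enzymatic dissociation. Every cell here was released with collagenase and sorted, with no undissociated tissue beside it. RNA induced in the wound and RNA induced during isolation therefore cannot be told apart.

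Promoter sequences of 8 members were matched in RefSeq (GRCm38.p6), while Egr1 and Ier2 had no entry. Those of Fos and Fosb, which varied most closely together among matrix cells, and of Atf3, which differed most between cell kinds, are shown 5′ to 3′ as the 250 bases before the RefSeq start. Capitals mark TGACG, the core of the cAMP response element, or its reverse complement. The windows lie at chr12:85473640-85473889 on the plus strand for Fos, chr7:19310046-19310295 on the minus strand for Fosb and chr1:191183334-191183583 on the minus strand for Atf3. The Atf3 window lies inside the gene as annotated, chr1:191170296-191218039, and not at its outer end. The Jund window, which is not printed, ends at chr8:70697738, upstream of the annotated gene start at chr8:70698949.
Fos: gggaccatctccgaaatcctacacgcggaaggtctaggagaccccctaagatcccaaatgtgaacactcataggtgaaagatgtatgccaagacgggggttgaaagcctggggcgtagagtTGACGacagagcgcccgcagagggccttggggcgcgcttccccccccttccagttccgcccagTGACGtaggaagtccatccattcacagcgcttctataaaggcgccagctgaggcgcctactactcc
Fosb: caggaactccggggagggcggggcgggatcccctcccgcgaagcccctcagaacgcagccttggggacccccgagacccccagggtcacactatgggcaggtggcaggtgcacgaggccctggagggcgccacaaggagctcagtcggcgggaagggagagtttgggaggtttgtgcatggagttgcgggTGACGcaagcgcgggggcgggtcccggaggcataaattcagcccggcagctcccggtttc
Atf3: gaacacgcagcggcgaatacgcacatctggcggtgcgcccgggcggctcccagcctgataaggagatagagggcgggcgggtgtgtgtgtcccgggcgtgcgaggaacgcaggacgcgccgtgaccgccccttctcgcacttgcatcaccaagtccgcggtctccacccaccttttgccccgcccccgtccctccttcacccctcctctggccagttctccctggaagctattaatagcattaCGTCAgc

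TGACG was found on either strand in 6 of the 8 windows, those of Fos, Fosb, Junb, Atf3, Klf2 and Klf4, and in 17.8% of 32807 promoter windows of this length. The GC-box core GGGCGG, bound by Sp1, was also in 6 of 8, beside 32.7% of all windows. TATAAA was in that of Fos alone, beside 12.4%. None of the 8 windows held the full element TGACGTCA, the AP-1 site TGANTCA, a CArG box or the Egr site GCGTGGGCG, which were in 1.55%, 6.75%, 1.47% and 0.536% of all windows. The full element includes TGACG, both strands were searched, and a match is only a match of letters.

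After cells of low depth, very many genes or a high mitochondrial share were left out, 292 cells were kept. Their kind was read from marker RNA in FPKM, which is fragments scaled to transcript length and to the cell's total; this unit was read from the values and no source used here states it for these tables. Matrix cells had at least 1000 FPKM of Col1a1, under 100 of Rgs5 and under 50 of Tyrobp, mural cells at least 500 of Rgs5 and under 50 of Tyrobp, and myeloid cells at least 500 of Tyrobp. This gave 198 matrix, 57 mural and 26 myeloid cells, and 11 cells of no kind. Apart from these 3 genes, all 6 matrix markers were above 0 in most of the matrix cells, 5 of 6 mural markers in the mural cells and all 8 myeloid markers in the myeloid cells. Summed without Tyrobp, the myeloid markers were 17420 to 29247 FPKM in myeloid cells by capture and 6.50 to 67.2 FPKM in matrix cells. Summed without Col1a1, the matrix markers were still 3924 to 12760 FPKM in mural cells and 67.95 to 10741 FPKM in myeloid cells. Summed endothelial, keratinocyte and lymphocyte markers reached at most 48.7, 17.1 and 1.50 FPKM in any kind and capture, and adipocyte markers 197 FPKM, in myeloid cells. Summed Schwann cell markers reached 122 FPKM in matrix and 149 FPKM in mural cells, where Gpm6b was above 0 in 67.2% and 56.1% of cells and Sox10 in 2 of 198 and 1 of 57 cells. Summed smooth muscle markers were 463 to 3136 FPKM in mural cells and 107 to 937 FPKM in matrix cells. Median depth by capture was between 947180 and 2353100 estimated fragments per kept cell, as computed from the spacing of the values. For the members with 1 annotated transcript, a single fragment was worth 0.147 to 0.863 FPKM at these depths.

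Some cells were not independent. Over 14849 genes, log2(FPKM + 1) had a median r of 0.40 between any 2 of the 367 cells. A pair of matrix cells in day 12 capture 2 had an r of 0.968, with near-proportional values such as 797 and 849 FPKM of Fos and 195 and 208 FPKM of Atf3, so they may be 1 library listed as 2 cells. In all, 12 pairs of kept cells had an r above 0.7, of which 6 lay within day 12 capture 2, 4 within day 21 capture 2 and 2 between day 12 capture 3 and day 15 capture 2, and 4 of the 12 joined cells of different kinds. Values below are from all kept cells. With the nearest pair counted as 1 cell, mean Atf3 in matrix cells of day 12 capture 2 was 37.96 FPKM in place of 44.2 FPKM. With that pair as 1 cell, or with the shallower cell of each of the 12 pairs left out, the number of members past the threshold was the same in each comparison below.

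Fos was the most abundant member in matrix cells and Jund the least. On the log2(mean FPKM + 1) scale, Fos averaged 9.32 ± 0.97 (SD, n = 7 captures), Egr1 8.13 ± 0.97 and Jun 6.83 ± 0.95. Fosb followed at 6.27 ± 1.17, Junb at 6.17 ± 1.02, Ier2 at 5.57 ± 1.41 and Klf4 at 5.43 ± 1.96. Atf3 at 3.93 ± 2.14, Klf2 at 3.73 ± 0.96 and Jund at 2.69 ± 0.53 were lowest. Fos was above Egr1 in 7 of 7 captures, by 1.19 ± 0.36 on this scale, and Egr1 above Jun in 7 of 7, by 1.30 ± 0.56. Junb was above Ier2 in 7 of 7, by 0.60 ± 0.58, and Klf2 above Jund in 6 of 7, by 1.05 ± 1.00. The other neighbours in the order, from Jun to Junb and from Ier2 to Klf2, differed by less than the spread of their differences. Of these, Jun was above Fosb and Klf4 above Atf3 in 6 of 7 captures each. Fosb was above Junb in 4 of 7, Ier2 above Klf4 in 3 of 7 and Atf3 above Klf2 in 4 of 7.

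Detection followed the same order only in part. Jun, a chief partner of Fos in AP-1, was above 0 in 196 of 198 matrix cells (99.0%), Fos in 187 (94.4%), Egr1 in 186 (93.9%) and Fosb in 176 (88.9%). Junb, which can act against Jun, was above 0 in 147 (74.2%) and Jund, the most constant of the Jun genes in many tissues, in 142 (71.7%). Klf4 was detected in 126 (63.6%), Ier2 in 122 (61.6%), Klf2 in 72 (36.4%) and Atf3 in 63 (31.8%). A matrix cell held a median of 7.5 of the 10 genes, with a range of 1 to 10, and 21 of 198 held all of them. No matrix cell lacked all 10. Jun, Junb, Jund and Atf3 overlap other annotated genes on the opposite strand, namely Junos, Prdx2, Gm11175 and Gm24748, and no source used here states that the counting used strand, so reads within such overlaps are uncertain.

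The clearest pattern in matrix cells was between captures, including captures of the same day. Mean Fos was 169, 1127 and 725 FPKM in day 12 captures 1, 2 and 3, 606 and 594 FPKM in the day 15 captures and 623 and 1397 FPKM in the day 21 captures. Mean Egr1 was 92.5, 350 and 374 FPKM on day 12, 243 and 209 FPKM on day 15 and 253 and 853 FPKM on day 21. Mean Klf4, a factor linked to growth arrest and barrier formation in skin, was 1.72, 25.2 and 93.6 FPKM on day 12, 68.9 and 41.7 FPKM on day 15 and 79.9 and 172 FPKM on day 21. In all 3 genes the first day 12 capture was lowest and the second day 21 capture highest, and the other 5 captures lay between them. Of the 10 members, 7 were lowest in day 12 capture 1 and all 10 were highest in day 21 capture 2. Over all genes tested, 14.4% were lowest in the former and 14.6% highest in the latter.

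**Figure D1:**
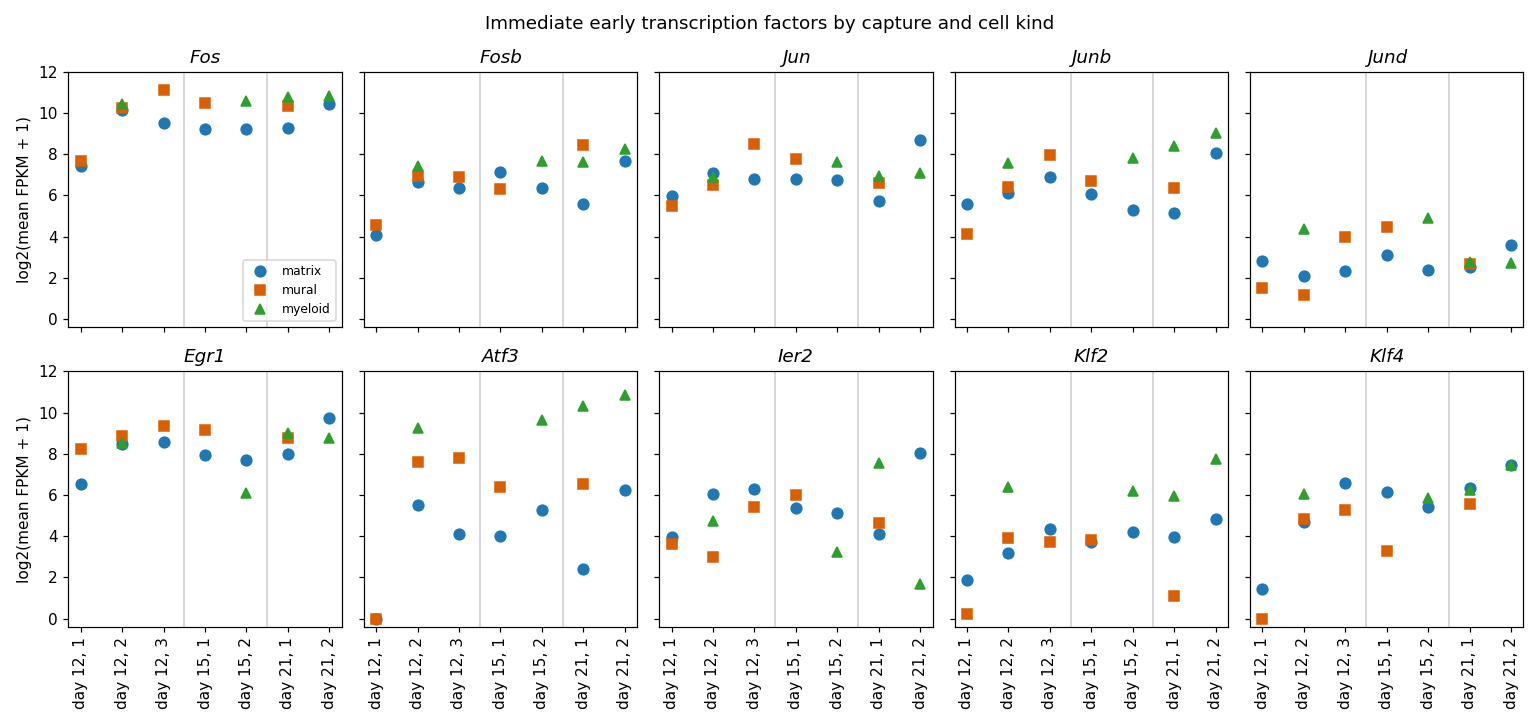
Mean level of each member by capture, as log2(mean FPKM + 1), with matrix cells as circles, mural cells as squares and myeloid cells as triangles, for kinds with at least 3 kept cells in a capture. Vertical lines part the days. Fos in matrix cells runs from 169 FPKM in day 12 capture 1 to 1397 FPKM in day 21 capture 2, and Atf3 of myeloid cells stands above that of matrix cells in all 4 captures compared.

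The remaining members had the same extremes in most cases. Mean Jun was 51.7 FPKM in day 21 capture 1 and 407 FPKM in day 21 capture 2, its lowest and highest value. Fosb ranged from 15.8 to 205 FPKM, Ier2 from 14.6 to 266 FPKM and Klf2, known for its role in quiescent endothelium, from 2.69 to 27.4 FPKM, each between day 12 capture 1 and day 21 capture 2. Junb ranged from 34.3 FPKM in day 21 capture 1 to 269 FPKM, and Jund from 3.24 FPKM in day 12 capture 2 to 11.2 FPKM. In day 12 capture 1, where Jund averaged 6.06 FPKM, 1 matrix cell held 148 FPKM and the median was 0. That cell, with 83.5 FPKM, was the only matrix cell there with Klf2 above 0. Atf3 averaged 44.2 and 15.96 FPKM in day 12 captures 2 and 3, 15.0 and 37.2 FPKM on day 15 and 4.26 and 74.7 FPKM on day 21. It was listed at 0 in all 31 matrix cells of day 12 capture 1, which bounds the share of cells with a detected value at 9.68%, for counting error only, and does not bound expression. All 9 mural cells of that capture were also listed at 0 for Atf3.

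Fos was low in the other kinds of day 12 capture 1 as well. In mural cells, mean Fos was 201 FPKM in day 12 capture 1, against 1215 and 2255 FPKM in captures 2 and 3 of that day, 1431 FPKM in day 15 capture 1 and 1298 FPKM in day 21 capture 1. Mural Ier2 and Jund were not lowest there, with 11.1 and 1.80 FPKM, against 7.04 and 1.27 FPKM in day 12 capture 2. Its 2 myeloid cells averaged 22.9 FPKM of Fos, while the other captures with at least 3 myeloid cells had 1384 to 1841 FPKM. Depth was not low there, with a median of 2005200 estimated fragments and 6233 genes in its matrix cells, against 2295700 fragments and 5561 genes in day 21 capture 2. Mitochondrial genes took a median of 3.77% and 2.76% of FPKM in the same cells. Whether mice, handling time or chip went with these captures cannot be told apart.

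**Figure D2:**
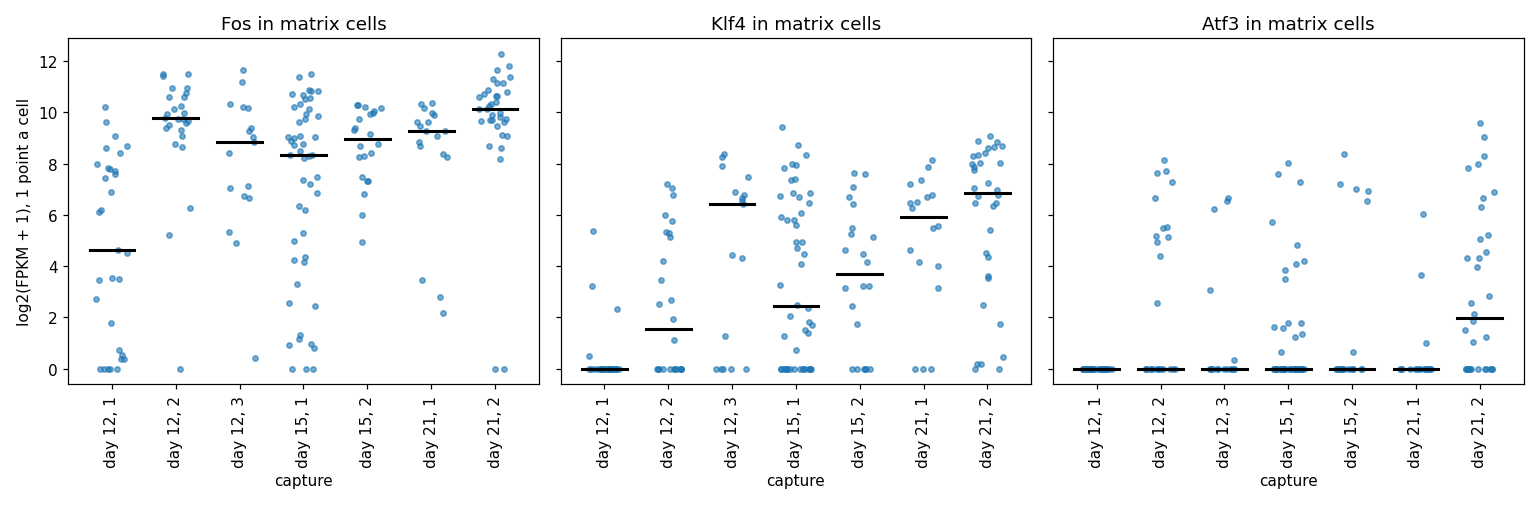
Fos, Klf4 and Atf3 in each kept matrix cell by capture, as log2(FPKM + 1), with 1 point a cell and a bar at the median. In day 12 capture 1 the median was 23.5 FPKM for Fos and 0 for Klf4 and Atf3, and in day 21 capture 2 it was 1103, 116 and 2.98 FPKM.

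Cells within a capture were also uneven. Fos was above 0 in 26 of 31 matrix cells of day 12 capture 1 and Klf4 in 4 of 31, whereas 32 of 34 cells of day 21 capture 2 had Fos and 32 of 34 had Klf4. Median Ier2 was 0 FPKM in day 12 capture 1 and in day 15 capture 1, and 136 FPKM in day 21 capture 2. The median number of members per matrix cell was 5 in day 12 capture 1, 9 in day 21 capture 2 and between 7 and 8 in the other captures.

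The question of the day comparisons was whether these genes differed in matrix cells as the wound aged. Between captures of the same day, the SD of log2 levels had a median of 1.14 over the members, from 0.54 for Jund to 2.47 for Atf3. It was 0.92 over all 13552 genes tested and 0.71 over the 6268 genes that averaged 10 FPKM or more. Against this spread, limma called 0 of 10 members between day 15 and day 12, where it called 0.0% of all genes. It called 0 of 10 between day 21 and day 12, with 0.00738% of all genes, and 0 of 10 between day 21 and day 15, with 0.0%. At an unadjusted p under 0.05 the members counted were 0 with 5.84% of all genes, 1 with 7.14% and 0 with 5.5%, in that order.

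The member with an unadjusted p under 0.05 was Klf4, whose log2 level averaged 6.89 ± 0.78 (SD, n = 2) on day 21 and 4.24 ± 2.59 (n = 3) on day 12. The difference was 2.65 ± 1.16 (SE), with a limma adjusted p of 0.69. The day 12 and day 21 captures overlapped, since 93.6 FPKM in day 12 capture 3 was above 79.9 FPKM in day 21 capture 1. Without day 12 capture 1 and day 21 capture 2 together, the difference was 0.70. All 10 members were higher in the mean of day 21 than of day 12, with a median difference of 0.90 beside -0.19 over all genes. Without those 2 captures, a choice made after the values were seen, 3 of 10 were higher and the median was -0.72. Without day 12 capture 1 alone it was 0.19, and without day 21 capture 2 alone it was 0.0022.

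From day 12 to day 15, differences ran from -0.51 for Junb to 1.53 for Klf4, with 7 of 10 positive and a median of 0.28, beside -0.10 over all genes. Without day 12 capture 1, 4 of 10 were positive and the median was -0.16. Between day 21 and day 15 they ran from -0.31 for Atf3 to 1.11 for Klf4, with 8 of 10 positive and a median of 0.55, beside -0.05. Without day 21 capture 2, 4 of 10 were positive and the median was -0.39. The 3 comparisons share captures. Standard errors of the members were 0.65 or more, so differences of this size were not detectable with 2 or 3 captures a day.

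Mural cells, the Rgs5-rich cells that include pericytes, were set against matrix cells of the same capture in the 5 captures with at least 3 of both. None of the 10 members passed the limma threshold, which 1.71% of 13823 genes did. At an unadjusted p under 0.05 there were 3, Fos, Egr1 and Atf3, beside 14.3% of all genes. Mean Egr1 of mural cells was 301, 461 and 648 FPKM in the day 12 captures, 571 FPKM in day 15 capture 1 and 438 FPKM in day 21 capture 1. It was above the matrix mean in all 5, as was Fos, and 4.73% of all genes were higher in every capture. The difference in Egr1 was 0.98 ± 0.26 (SE, adjusted p = 0.11) and in Fos 0.86 ± 0.25 (adjusted p = 0.13).

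Atf3 of mural cells averaged 0, 195 and 219 FPKM in the day 12 captures, 81.4 FPKM in day 15 capture 1 and 90.5 FPKM in day 21 capture 1. In day 12 capture 3 its median was 38.5 FPKM, and the highest of 14 mural cells held 1788 FPKM. The same cell held 8124 FPKM of Fos. Mean Atf3 was above the matrix mean in 4 of 5 captures, with both kinds listed at 0 in the remaining one. It was detected in 29 of 57 mural cells (50.9%) against 63 of 198 matrix cells. The fitted difference was 2.46 ± 0.67 (SE), with an adjusted p of 0.12. With log values averaged over cells in place of the log of the mean, Atf3 (2.16, adjusted p = 0.013) and Fos (1.47, adjusted p = 0.029) passed the limma threshold. The differences of the other members were from -1.25 for Klf4 to 0.67 for Fosb, with 4 of 7 positive. Klf4 was above 0 in 24 of 57 mural cells (42.1%). The median over the 10 was 0.43, beside -0.22 over all genes, and it was 0.16 without day 21 capture 1, 0.18 without day 12 capture 3 and 0.73 without day 12 capture 1.

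Myeloid cells, which held RNA of complement C1q and lysozyme, were compared with matrix cells in the 4 captures with at least 3 of both. Atf3 rose above the matrix level in each. Its myeloid mean was 601 FPKM in day 12 capture 2, 807 FPKM in day 15 capture 2 and 1277 and 1828 FPKM in the day 21 captures, where the matrix means were 44.2, 37.2, 4.26 and 74.7 FPKM. The lowest myeloid capture thus stood above the highest matrix capture. The log2 difference was 5.16 ± 0.82 (SE), a fold of 35.9 on the log2(mean FPKM + 1) scale, with a limma adjusted p of 0.0078. Relative to the median gene, whose difference was -0.998, the difference was 6.16. Atf3 was detected in 24 of 26 myeloid cells (92.3%).

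**Figure D3:**
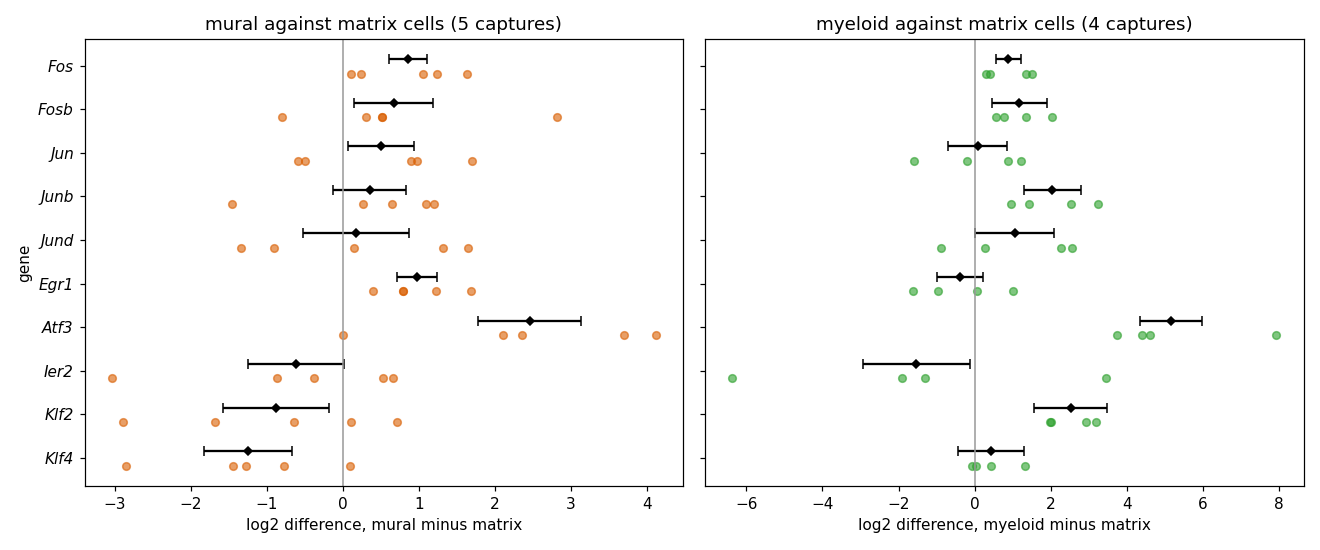
Differences of the 10 members between mural and matrix cells (left, 5 captures) and between myeloid and matrix cells (right, 4 captures) on the log2(mean FPKM + 1) scale. Each coloured point is 1 capture, and diamonds with bars give the fitted difference with its standard error. Atf3 in myeloid cells, at 5.16, was the only member past the threshold.

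Atf3 was thus 1 of 10 members past the threshold, beside 6.59% of 13059 genes. It kept an adjusted p of 0.015 to 0.030 when each capture was left out, with a difference of 4.24 without day 21 capture 1 to 5.64 without day 12 capture 2. Without the filter on low values, when 24111 genes were tested, the difference was the same and the adjusted p was 0.18. The myeloid cells were 11, 4, 5 and 3 by capture, and some carried collagen RNA. Their mean Col1a1 was 215, 4533, 1248 and 23.8 FPKM in the order of the captures above. With the shallower cell of each alike pair left out, the Atf3 difference was 5.23 ± 0.83 (SE, adjusted p = 0.0073), and with day 12 capture 1 and its 2 myeloid cells added it was 5.50 ± 0.81 (adjusted p = 0.0031).

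Among the rest, 4 members were higher in myeloid than in matrix cells in each of the 4 captures compared without passing the threshold. Klf2, a restrainer of macrophage activation, averaged 83.1, 72.2, 61.05 and 213 FPKM, against 8.20, 17.3, 14.7 and 27.4 FPKM in matrix cells. Its difference was 2.52 ± 0.96 (SE, adjusted p = 0.12), and 3.09 with an adjusted p of 0.012 where log values were averaged over cells. Junb averaged 189, 227, 331 and 524 FPKM in myeloid cells, a difference of 2.04 ± 0.75 (adjusted p = 0.11), and Fos 1384, 1519, 1766 and 1841 FPKM, a difference of 0.89 ± 0.32 (adjusted p = 0.11). Fosb differed by 1.18 ± 0.73 (adjusted p = 0.32). With Atf3 these made 5 of 10 members higher in all 4 captures, beside 5.34% of all genes, and 4 of 10 had an unadjusted p under 0.05, beside 27.5%. The 2 myeloid cells of day 12 capture 1, too few to enter this comparison, lay below the matrix mean in all of the 4 members: 22.9 against 169 FPKM of Fos, 0.235 against 15.8 FPKM of Fosb, 13.8 against 46.9 FPKM of Junb and 0 against 2.69 FPKM of Klf2. With that capture added, 1 of 10 members, Atf3, had an unadjusted p under 0.05.

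Members without a constant direction were Jund, Klf4, Jun, Egr1 and Ier2. Ier2 was 25.7, 8.37, 188 and 2.23 FPKM in myeloid cells, above the matrix mean in day 21 capture 1 alone, and its difference was -1.53 ± 1.41 (adjusted p = 0.49). Egr1 differed by -0.37 ± 0.61 and Jun by 0.08 ± 0.79. The median over the 10 members was 0.97, beside -0.998 over all genes, but 0.17 with day 12 capture 1 added and 0.64 without day 15 capture 2.

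Across single cells the members varied together. After centring log2(FPKM + 1) within capture and kind, all 45 pairs had a positive Pearson correlation over 198 matrix cells, with a median r of 0.32, and all 45 were positive with a median of 0.33 in the 189 cells left without the shallower of each alike pair. Fos and Fosb had the highest at 0.65, followed by Fos with Egr1 at 0.56 and Fos with Jun at 0.54. Klf2 had lower values, with r from 0.057 with Ier2 to 0.23 with Jun. In 57 mural cells 42 of 45 pairs were positive, with a median of 0.22, and in 26 myeloid cells 28 of 45, with a median of 0.12. The highest pair was Junb with Atf3 in mural cells, at 0.53, and Fosb with Egr1 in myeloid cells, at 0.56. Fos with Fosb was at 0.42 and 0.15 in these kinds. These cells share captures, depth and the genes' common scaling, so the values are descriptive.

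**Figure D4:**
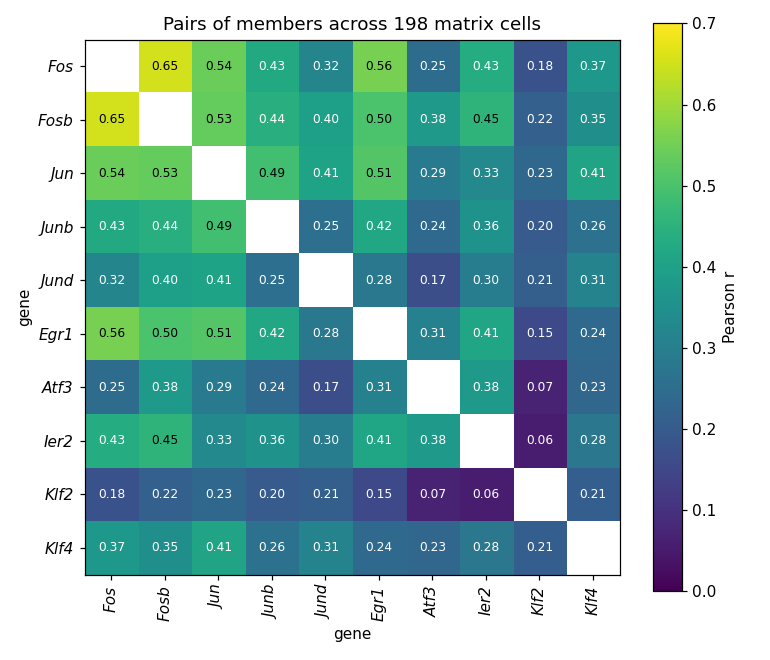
Pearson correlation of each pair of members across 198 matrix cells, from log2(FPKM + 1) centred within capture. Values run from 0.057 (Ier2 and Klf2) to 0.65 (Fos and Fosb), and the highest value of Klf2 is 0.23, with Jun.

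The mean of the members in a matrix cell had an r of 0.27 with the number of genes above 0. It was -0.070 with log2 estimated fragments and -0.051 with the mitochondrial share. In the same order, r was 0.26, -0.12 and -0.16 in mural cells and 0.54, 0.45 and -0.19 in myeloid cells. The mean of 16 heat shock and metallothionein genes marks a general stress response. With it, the mean of the members had an r of 0.54 in matrix, 0.55 in mural and 0.56 in myeloid cells. No mean of another gene list was compared in this way. Taken singly over all 3 kinds, the 16 genes had a median r of 0.23, beside 0.25 for 19 other immediate early genes. The part of stress during isolation in the members' levels was not tested.

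The 10 genes most like the members over 281 cells of the 3 kinds, out of 9399 ranked, were Zfp36 (r = 0.64), Dusp1 (0.58), Btg2 (0.53), Nfkbia (0.50), Pim1 (0.49), Cxcl1 (0.48), Btg1 (0.44), Ppp1r15a (0.42), Gadd45b (0.42) and Neat1 (0.41). The median over all ranked genes was 0.051. Zfp36 speeds the decay of inflammatory mRNAs, Dusp1 dephosphorylates MAP kinases and Nfkbia holds NF-κB in the cytoplasm. Of these 10, 6 stood on the list of other immediate early genes, Cxcl1 on that of AP-1 targets, and Pim1, Btg1 and Neat1 on none. Of the 9399 genes ranked, 19 were other immediate early genes and 6 were AP-1 targets. Both lists were chosen with earlier results of these data known.

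Other gene lists showed which captures moved with the members. Of 23 other immediate early genes, 16 were lowest in day 12 capture 1 and 15 highest in day 21 capture 2, with median deviations of -1.45 and 1.14 on the log2 scale from the mean over captures. Dusp1 averaged 19.8 FPKM in the former and 459 FPKM in the latter. Of 19 other immediate early transcription factors, 9 were lowest and 7 highest in these captures, with median deviations of -0.74 and 0.81. For the members the medians were -1.72 and 1.72, and for all genes tested 0.068 and -0.079. The 21 upstream regulators and dimer partners, such as Srf and the MAP kinases, were at 0.11 and -0.37.

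Heat shock and metallothionein genes had median deviations of the same sign as the members in every capture, with another order of size. Theirs was -0.54 in day 12 capture 1 and 0.63 in day 21 capture 2. It was 0.77 and 0.67 in day 12 captures 2 and 3 and -0.68 in day 21 capture 1. The members had 0.30, 0.30 and -0.42 in the same captures. Hspa1a, a heat-induced chaperone, averaged 2.96 FPKM in day 12 capture 1 and 153 FPKM in day 21 capture 2. The 12 genes known to be induced through AP-1 were at -0.13 and 0.041 in these captures, and highest at 1.32 in day 12 capture 2.

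**Figure D5:**
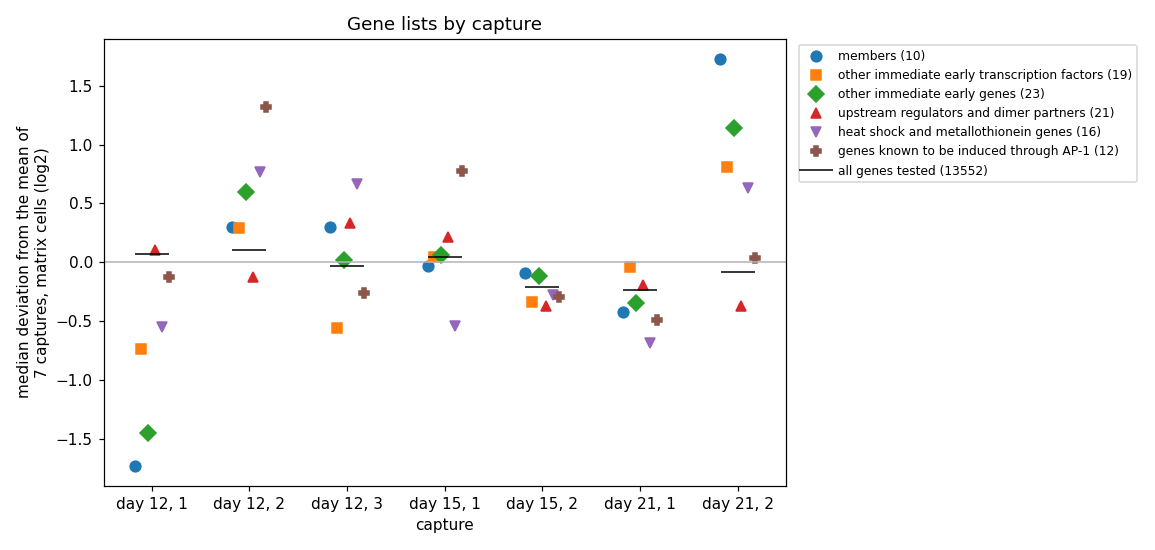
Median deviation of each gene list in matrix cells of a capture from the mean over 7 captures, on the log2 scale, with black bars for all 13552 genes tested and the number of genes in brackets. The members lie at -1.72 in day 12 capture 1 and 1.72 in day 21 capture 2, next to the other immediate early genes at -1.45 and 1.14.

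None of the genes in these 5 lists passed the limma threshold between days. At an unadjusted p under 0.05 there were 3 of 87 between day 15 and day 12, 9 between day 21 and day 12 and 2 between day 21 and day 15, beside the 5.84%, 7.14% and 5.5% of all genes. The most abundant of each list were Klf6, Bhlhe40 and Fosl2 among the other transcription factors, Nfkbia, Gadd45g and Btg2 among the other immediate early genes, and Atf4, Atf7 and Mapk3 among the regulators. They were Hspa8, Hsp90ab1 and Dnaja1 among the stress genes and Timp1, Cxcl1 and Mmp3 among the AP-1 targets. Gadd45g, a growth arrest gene, differed by 1.47 ± 0.51 (SE) between day 15 and day 12, with a limma adjusted p of 0.72.

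Between kinds, a few genes of these lists passed, where 1.71% of all genes did for mural and 6.59% for myeloid cells. In mural cells Errfi1, a feedback inhibitor of the EGF receptor, was 3.83 ± 0.56 (SE) higher on the log2 scale than in matrix cells (adjusted p = 0.0083), 1 of 22 other immediate early genes tested. The chaperone Hspa8 was 1.10 ± 0.20 higher (adjusted p = 0.023), 1 of 16 stress genes. The chemokines Cxcl1 (2.86 ± 0.32, adjusted p = 0.0022) and Ccl2 (2.18 ± 0.30, adjusted p = 0.0065) were higher, 2 of 11 AP-1 targets. None of the 16 other transcription factors or 20 regulators passed, and 2 and 0 of them had an unadjusted p under 0.05, beside 14.3% of all genes.

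In myeloid cells Dusp1 was 1.93 ± 0.50 higher (adjusted p = 0.045) and Ccn1, a matricellular protein, differed by -4.66 ± 1.25 (adjusted p = 0.049), 2 of 22 other immediate early genes. The stress kinase gene Mapk14 was higher by 4.51 ± 1.11 (adjusted p = 0.039), 1 of 19 regulators, and the metallothionein Mt1 by 2.37 ± 0.52 (adjusted p = 0.029), 1 of 16 stress genes. Of 12 AP-1 targets, the cytokine Il1b was higher by 6.74 ± 1.32 and the protease Mmp3 differed by -6.25 ± 1.22, each with an adjusted p of 0.021. None of 18 other transcription factors passed, and 5 had an unadjusted p under 0.05, beside 27.5% of all genes. Median differences of the 5 lists between myeloid and matrix cells were from -1.81 for the AP-1 targets to 0.56 for the other immediate early genes, beside -0.998 for all genes.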

How the data were processed

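RNA of 367 single cells was measured by full-length C1 sequencing. The authors aligned reads with Bowtie 1.0.0 to mm10 with GENCODE mouse release 13 and computed the deposited FPKM values with RSEM. The unit was taken from the values, which have 2 decimals and totals that differ between cells, since no source used here states it for these tables. No counts were used here, so that count models were not run and intervals from counting were not given.

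Gene names came from GENCODE mouse release 21, which holds 50376 of 50600 identifiers. Fragments per cell were estimated from the steps between FPKM values of single-transcript genes of at least 1000 bases, with a fragment length of 300 assumed. Cells under 159000 estimated fragments, above 11000 genes or with more than 15% of FPKM on mitochondrial genes were left out. Doublets were removed by the authors by microscopy of the chip, and no caller was run.

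Mean FPKM per kind and capture was tested as log2(mean + 1) with limma 3.58.1 in R 4.3.3 (two-sided, variance trend), over genes that averaged 1 FPKM or more, with Benjamini-Hochberg adjustment over all of them and a threshold of 0.05. Kinds were compared with the capture as block wherever a capture held 3 or more of each. The scripts were tested on simulated data. Capture means, not cells, were the replicates. Detected means above 0. Cells were compared by Pearson correlation of log2(FPKM + 1) over genes above 0 in at least 5% of them. A share of 0 cells was bounded with 3 cells of the total.

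All 10 members are named, and of other lists the genes past the threshold or else the 3 most abundant. The 10 genes most alike were ranked among genes above 0 in at least 20% of cells. Srf, Hspa1a and Col1a1 were named after their values were seen, as were the motifs. The members and lists were chosen with earlier results of these data known. Python 3.11.15 with pandas 2.3.3 was used for the rest.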

Additional observations from a re-analysis of the deposited data

How the results depend on the processing

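In each comparison the number of members past the threshold was recomputed under other pseudocounts (0.1 and 10), without the filter on low values, with log values averaged over cells, with cells scaled to a common total, with quantile normalization, without the cell filter, with the limits for the kinds doubled and without each capture in turn. It stayed at 0 in the 3 day comparisons under all of these, also with all kept cells of any kind, without a variance trend, without the captures of lowest and highest level, with the near-identical pair of cells counted as 1 and without the shallower cell of each alike pair, the last 4 chosen after seeing the data. For mural against matrix cells it was 0, and 2 with log values averaged over cells. For myeloid against matrix cells it was 1, but 0 without the filter on low values, and 2 with log values averaged over cells. With captures of at least 2 cells of both kinds it stayed at 0 and 1, and with alike cells treated in either way too. Over all genes, 31 of 24111 passed for myeloid cells without the filter on low values, in place of 861 of 13059. The cause of the changes with the filter and with averaging was not tested. Of 980 recomputed differences of single members, 976 kept their call, 1 lost it and 3 gained it, while 63 changed sign, none of them past the threshold.

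Capture numbers recur between days. Matching numbers had correlations of -0.0068 to 0.025 between deviations from day means, and different numbers -0.030 to 0.030. Deviations within a day cancel, so values of different numbers partly repeat those of matching numbers with the sign reversed. These correlations therefore cannot decide whether the numbers pair captures, and a shared run or handling was not tested. With the number as a replicate block, 0 members passed in each day comparison. Without the replicate block, 0 passed for mural and 1 for myeloid cells. Of 30 detection shares, 5 moved by more than the SD over captures when detection began at 1 FPKM and 3 without the cell filter. Within kinds, none of the groups of 4 or 5 captures had a difference far enough from the others to be listed as an outlier. Captures with few cells limit the precision: 3 to 11 myeloid cells per capture carried the Atf3 result.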
